A study of Homo sapiens with 8 samples.

Results

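The 35 genes described here encode the chaperones and folding enzymes of the endoplasmic reticulum (ER), the sensors of the unfolded protein response and the machinery of ER-associated degradation (ERAD). They were chosen by gene symbol as known genes of the pathway, with earlier results of these data in view, and all 35 were found among the 16796 genes of the count files. Messenger RNA had been sequenced from LX-2 cells, a human cell line derived from hepatic stellate cells that behaves like activated, myofibroblastic stellate cells. The OGTi group received the compound OSMI-1 at 50 µM, an inhibitor of the O-GlcNAc transferase OGT, and the control group received the vehicle DMSO, both for 24 h in medium with 5% serum. Each group had 4 libraries numbered 1 to 4, and the control and OGTi libraries with the same number were compared as a pair. All libraries came from this single line, so the values describe LX-2 cells and no other stellate cell. For the description the genes were divided into 4 roles. These were 5 sensors and transducers, 15 chaperones and folding enzymes (named ATF6-type), 12 ERAD genes (named XBP1-type), and 3 genes of the ER membrane, translocation and export. The names ATF6-type and XBP1-type are labels only. Which factor controls each gene was not measured, and genes in either role may answer to the other factor or to both.

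The libraries held between 24166756 and 28201215 counts, and each of the 35 genes held at least 398 counts over the 8 libraries. Of 10 stellate cell and myofibroblast markers, VIM and COL1A1 stood at 95090 and 84780 normalized counts in control, and DES and LRAT were near 0. The summed share of these markers was 0.716% to 0.818% of all normalized counts in control and 0.583% to 0.706% in OGTi. At a q of 0.05 or lower, 6 of the 10 were called lower and 1 higher (TIMP1, 0.47 ± 0.10 on the log2 scale, DESeq2 q of 5.36e-06). Over all genes with a q, 24.0% were called lower and 22.7% higher. Of the markers of other liver cells, 2 of 6 hepatocyte genes were found, with sums of 19.5 to 74.0 normalized counts in control and 26.0 to 74.0 in OGTi, and ALB was not among them. The 3 of 5 macrophage genes found summed to 65.5 to 102 in control and 48.1 to 97.4 in OGTi, and the 4 of 5 endothelial genes to 49.7 to 91.1 and 17.0 to 33.8. The 3 of 4 cholangiocyte genes summed to 681 to 1151 in control and 955 to 1273 in OGTi. Of these, SOX9 had means of 834 and 1045 (called higher, DESeq2 q of 0.00715). KRT7 had 111 and 53.9 (called lower, DESeq2 q of 0.000229), and KRT19 was near 0. The part of these marker differences in the results that follow was not tested.

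The lumen of the ER folds secreted and membrane proteins with the help of the Hsp70 chaperone BiP (HSPA5), its co-chaperones, the lectins that hold glycoproteins, and the protein disulfide isomerases. When unfolded proteins accumulate, the kinase-nuclease IRE1 (ERN1) splices the XBP1 message, the kinase PERK (EIF2AK3) slows translation and favours ATF4, and ATF6 travels to the Golgi to be cleaved into a transcription factor. ATF6 is best known for raising chaperones, XBP1 for raising ERAD and its associated co-chaperones, and the targets of both overlap. Stellate cells that make collagen rely on this machinery, since procollagen is folded in the ER.

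ATF6 and XBP1 act through short promoter elements, which are shown here because they divide the 35 genes in a way that uses no expression value. The letters searched on both strands were those of the ER stress element ERSE (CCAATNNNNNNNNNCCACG), which joins a site for the factor NF-Y to a site for ATF6, of ERSE-II (ATTGGNCCACG), and of the unfolded protein response element UPRE (TGACGTGG). The UPRE read on its other strand holds the CCACG that ends the other elements, so matches can overlap. The windows ran from 250 bases before to 50 bases after each annotated start in RefSeq on GRCh38.p14, and 31 of the 35 genes had one or more (38 windows), the exceptions being PDIA3, DERL1, DERL3 and SEC24D. The 250 bases before the start are given for 4 genes that carried a match and differed in their response, with the match in capitals and the strand of the gene.
HSPA5, chr9:125241344-125241593, minus strand: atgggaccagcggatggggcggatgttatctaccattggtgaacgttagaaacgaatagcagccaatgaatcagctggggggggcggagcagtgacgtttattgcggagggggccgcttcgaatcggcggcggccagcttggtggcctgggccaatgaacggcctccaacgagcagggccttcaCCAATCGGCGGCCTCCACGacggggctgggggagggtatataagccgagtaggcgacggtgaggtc
XBP1, chr22:28800570-28800819, minus strand: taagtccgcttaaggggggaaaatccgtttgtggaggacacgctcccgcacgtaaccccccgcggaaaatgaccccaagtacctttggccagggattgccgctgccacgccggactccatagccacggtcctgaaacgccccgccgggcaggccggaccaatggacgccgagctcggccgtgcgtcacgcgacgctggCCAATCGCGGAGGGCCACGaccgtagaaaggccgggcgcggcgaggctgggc
PDIA6, chr2:10812786-10813035, minus strand: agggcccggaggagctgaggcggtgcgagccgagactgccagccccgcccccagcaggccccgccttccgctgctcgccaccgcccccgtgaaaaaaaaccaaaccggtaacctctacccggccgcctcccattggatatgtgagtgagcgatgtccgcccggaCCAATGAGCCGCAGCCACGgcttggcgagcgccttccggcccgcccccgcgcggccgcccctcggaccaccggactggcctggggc
HERPUD1, chr16:56931892-56932141, plus strand: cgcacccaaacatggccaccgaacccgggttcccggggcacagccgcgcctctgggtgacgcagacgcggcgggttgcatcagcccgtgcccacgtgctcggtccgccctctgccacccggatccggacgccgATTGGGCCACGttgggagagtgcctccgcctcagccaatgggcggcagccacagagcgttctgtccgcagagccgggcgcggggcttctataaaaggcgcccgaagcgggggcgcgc
The first 3 of these hold ERSE and the last ERSE-II. HSPA5 and HERPUD1 were called higher in OGTi, PDIA6 was called lower and XBP1 was not called.

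ERSE was found in 7 of the 31 genes (22.6%), against 0.0916% of the 27305 genes with a window in the whole table. ERSE-II was found in 3 of the 31 (9.68%), against 0.0696% of all genes, and UPRE in 2 of the 31 (6.45%), against 0.927%. The genes were chosen as known members of the pathway in which these elements were described, so the contrast with all genes is no test. The other matches are listed as read on the strand of the motif, to show how the spacer varies while the ends stay fixed.
HSP90B1, chr12:103930216-103930234: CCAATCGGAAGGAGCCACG
HSP90B1, chr12:103930321-103930339: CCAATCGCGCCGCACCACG
CANX, chr5:179698778-179698796: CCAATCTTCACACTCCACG
ERO1B, chr1:236282183-236282201: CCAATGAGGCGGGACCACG
CRELD2, chr22:49918554-49918572: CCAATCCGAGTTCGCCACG
HYOU1, chr11:119057274-119057284: ATTGGACCACG
HYOU1, chr11:119057380-119057390: ATTGGACCACG
SDF2L1, chr22:21642114-21642124: ATTGGTCCACG
DNAJC10, chr2:182716132-182716139: TGACGTGG
HYOU1, chr11:119057386-119057393: TGACGTGG
HSP90B1 and HYOU1 each held a pair of stress elements, and the UPRE of HYOU1 overlapped the more distant of its ERSE-II matches. The single CANX match fell into 3 overlapping windows because RefSeq annotates several starts for this gene.

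**Figure D1:**
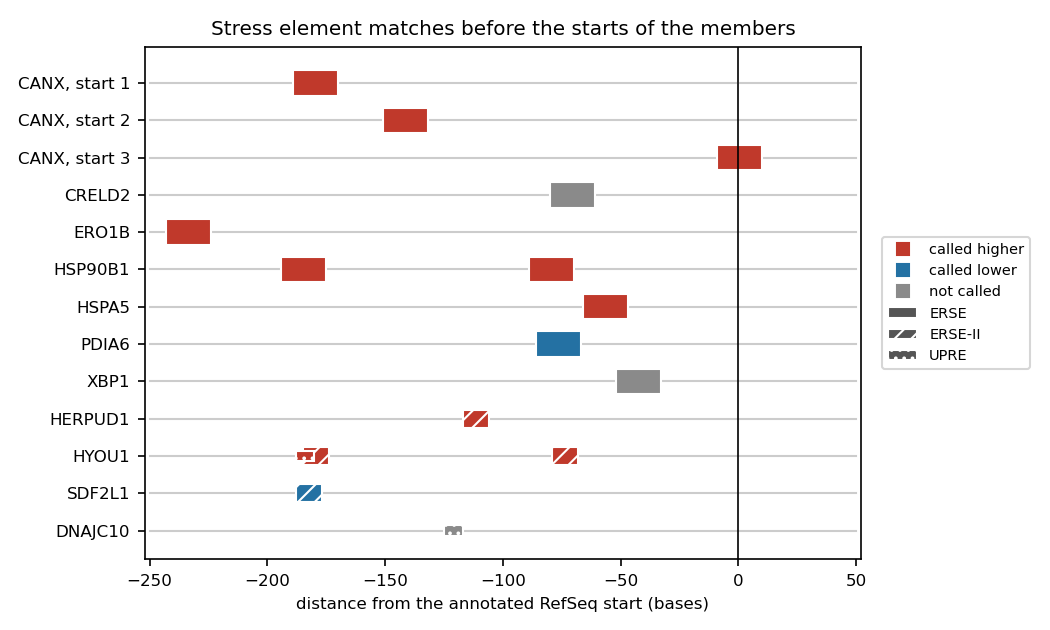
Position of each stress element match (bars) in the windows of the 11 genes that held one, by distance in bases from the annotated start, coloured by the call in OGTi against control. Matches lay between 243 bases before the start (ERO1B) and the start itself (one CANX window), and ERSE and ERSE-II each occurred in genes called higher and in genes called lower.

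Most of the 35 genes rose with OGTi, by small amounts. With the Wald test of DESeq2 and replicate as a block, 21 were called higher at an adjusted p (q) of 0.05 or lower, 4 were called lower and 10 were not called. Over all 14028 genes with a q, 46.6% were called, with 22.7% higher and 24.0% lower, against 71.4%, 60.0% and 11.4% of the 35. The median log2 fold change (OGTi over control) was 0.27 over the 35 genes and 0.005 over the 14895 genes tested. Taken pair by pair, the median of the 35 was 0.23, 0.35, 0.29 and 0.30 in pairs 1 to 4. The typical size of a change, as the median of the absolute log2 fold change, was 0.32 for the 35 and 0.33 for all genes. In 24 of the 25 called genes all 4 pairs had the direction of the call, DERL2 being the exception. A call in a fit with replicate as a block tends to go with such agreement, and the count over all called genes was not taken. The groups did not overlap in 21 of the 35 genes, while 38.0% of all tested genes had groups that did not overlap. Only DNAJB9 and ERN1 of the 35 changed by 2-fold or more. In bulk RNA, fewer cells of a kind and less RNA per cell cannot be told apart.

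**Figure D2:**
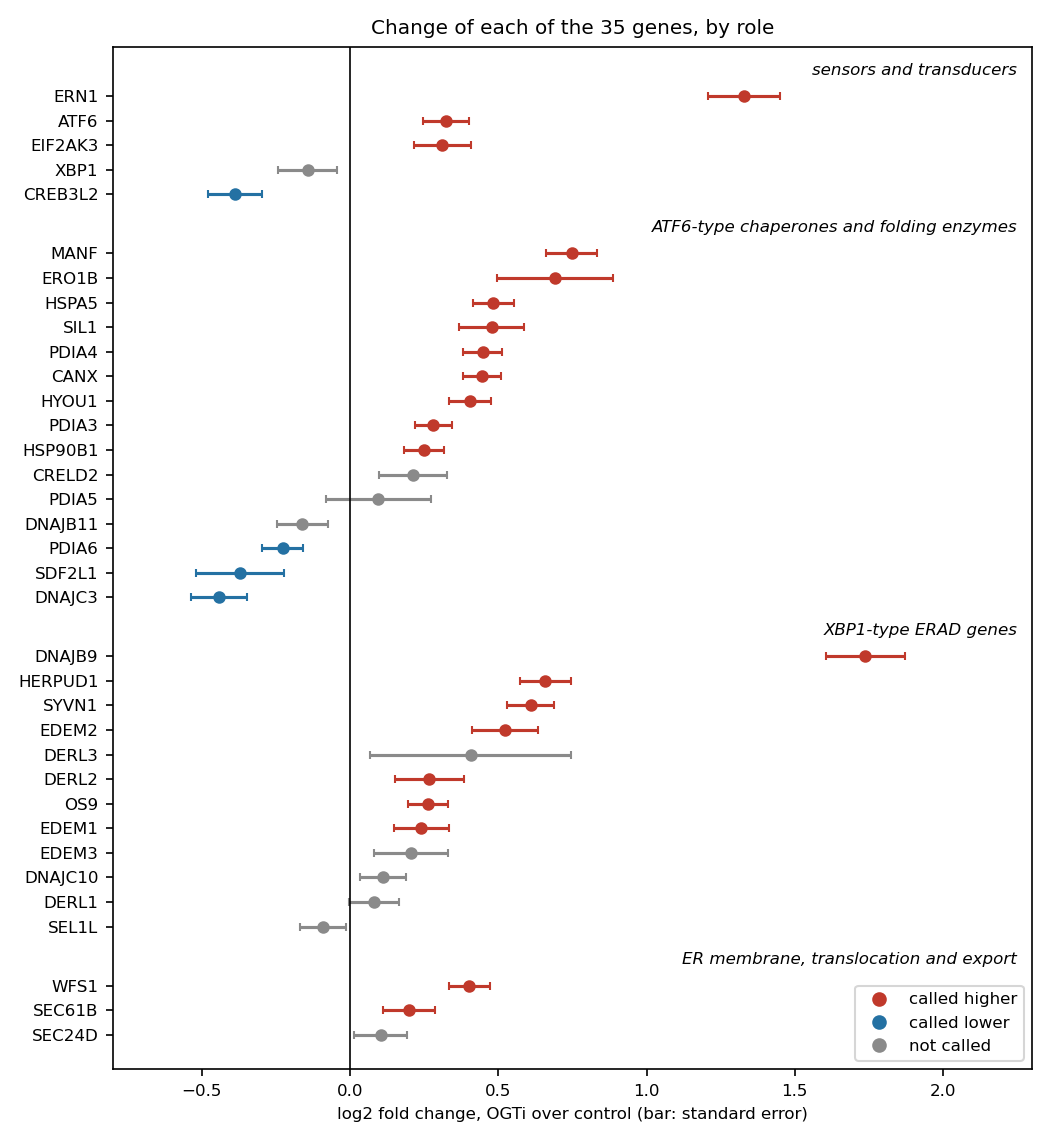
Fitted log2 fold change (OGTi over control, bars for the standard error) of each of the 35 genes, by role and coloured by call. DNAJB9 (1.74) and ERN1 (1.33) lie farthest to the right, the 4 genes called lower lie between -0.44 and -0.23, and every role holds genes called higher.

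The 3 sensors rose, with ERN1 far ahead. ERN1, which encodes IRE1, had 329, 472, 385 and 495 normalized counts in controls 1 to 4 and 999, 1053, 1099 and 1027 in OGTi 1 to 4. The lowest OGTi value lay far above the highest control, and the fit gave a log2 fold change of 1.33 ± 0.12 (SE, DESeq2 q of 9.27e-27). ATF6, the sensor that becomes a transcription factor, went from 1491, 1471, 1597 and 1709 to 1891, 1817, 2006 and 2125, and the groups did not overlap. Its rise was even, with log2 ratios of 0.31 to 0.34 in the 4 pairs and a fitted value of 0.32 ± 0.08 (DESeq2 q of 0.000153). EIF2AK3, which encodes PERK, went from 763, 749, 785 and 778 to 890, 985, 958 and 983. That was 0.31 ± 0.10 on the log2 scale (DESeq2 q of 0.00402), and without replicate 2 it was 0.28 with a q of 0.0608.

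Of the transducers, XBP1 was not called and CREB3L2 was called lower. XBP1, the target of IRE1, had 1525, 1426, 1261 and 1330 normalized counts in control and 1150, 1327, 1346 and 1195 in OGTi. The groups overlapped and pair 3 went the other way from the rest, and the fit gave -0.14 ± 0.10 (DESeq2 q of 0.237) and a 95% interval of 0.792-fold to 1.035-fold. Counts per gene do not separate spliced from unspliced XBP1, so the processing of this message by IRE1 was not measured. CREB3L2, which encodes the ER-anchored factor BBF2H7 known for raising genes of secretion in collagen-making cells, went from 6629, 7545, 8392 and 7889 to 6246, 4822, 5732 and 6524 (-0.39 ± 0.09, DESeq2 q of 7.55e-05). All 4 pairs fell, from -0.09 in pair 1 to -0.65 in pair 2, and the highest OGTi value lay just below the lowest control. Per kilobase of transcript, CREB3L2 was the most abundant of these 5 genes in control (1023 normalized counts per kb) and ERN1 the least (53.2), with XBP1 (773), ATF6 (210) and EIF2AK3 (169) between them. The summed normalized counts of the 5 ranged from 10740 to 12420 in control and from 10000 to 11850 in OGTi, with overlap. As a share of all normalized counts this was 0.0434% ± 0.0018 in control and 0.0435% ± 0.0034 in OGTi (SD, n = 4). CREB3L2, which was called lower, made up the largest part of this sum, with means of 7614 in control and 5831 in OGTi.

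**Figure D3:**
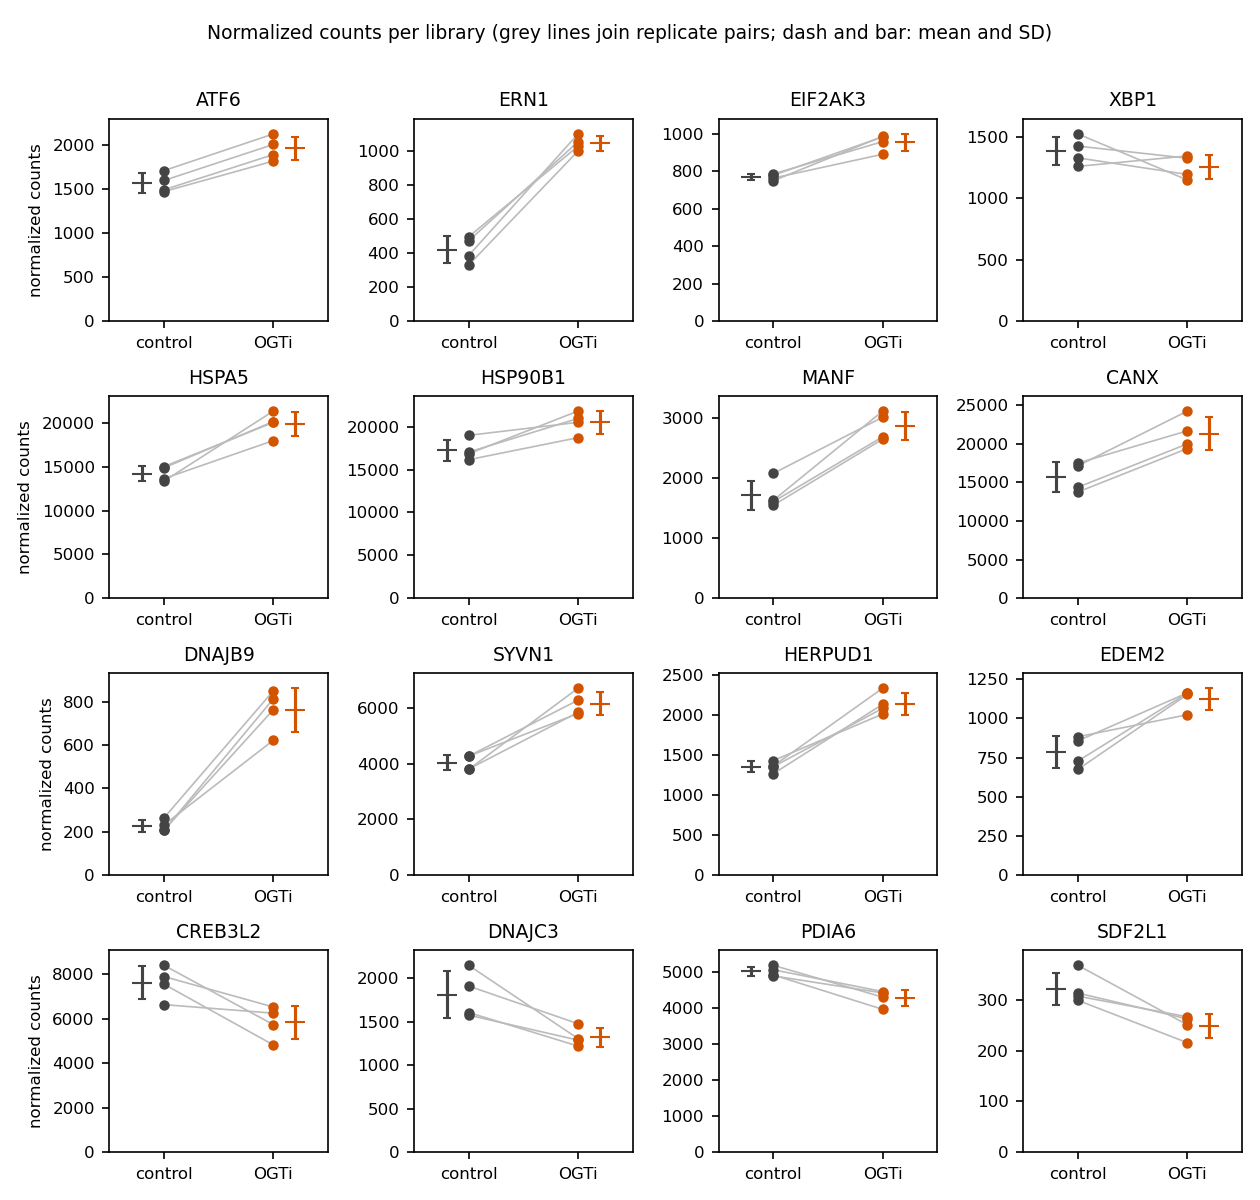
Normalized counts of 16 of the genes in each library, with grey lines joining the libraries of a pair and the mean and SD beside each group. ERN1 and DNAJB9 show the widest separation, XBP1 overlaps between groups, and CREB3L2, DNAJC3, PDIA6 and SDF2L1 in the last row are lower in each OGTi library than in each control.

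Of the 15 chaperones and folding enzymes, 9 were called higher, 3 lower and 3 were not called, with a median log2 fold change of 0.28. The summed normalized counts of the 15 ranged from 83760 to 91420 in control and from 102600 to 114100 in OGTi, without overlap. As a share of all normalized counts this was 0.321% ± 0.006 in control and 0.432% ± 0.019 in OGTi (SD, n = 4).

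HSPA5, which encodes BiP, had 13660, 13370, 15030 and 14890 normalized counts in controls 1 to 4 and 18000, 21370, 20080 and 20180 in OGTi. Every OGTi library lay above every control, and the log2 fold change was 0.48 ± 0.07 (DESeq2 q of 5.79e-11), or 1.397-fold with a 95% interval of 1.271 to 1.537. HSP90B1, which encodes GRP94, the Hsp90 of the ER, went from 16150, 16850, 18990 and 17040 to 18720, 21820, 20510 and 20960. Control 3 lay above OGTi 1, so the groups overlapped, but all 4 pairs rose (0.25 ± 0.07, DESeq2 q of 0.000817). Per kilobase these were the highest levels of all 35 genes in control, with 6202 for HSP90B1 and 3631 for HSPA5, followed by CANX (3194) and PDIA3 (3099).

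The nucleotide exchange factors of BiP rose with it. HYOU1, the large Hsp70 GRP170, went from 10050 ± 581 to 13310 ± 1091 normalized counts (mean ± SD, n = 4) (0.40 ± 0.07 on the log2 scale, DESeq2 q of 8.55e-08). SIL1 went from 591 ± 107 to 819 ± 92 (0.48 ± 0.11, DESeq2 q of 5.97e-05), with control 1 at 751 against 530 to 544 in the other controls. That control exceeded the lowest OGTi library, although pair 1 rose as well. MANF, a secreted factor that binds BiP, rose most of the 15. Its normalized counts were 2080, 1631, 1549 and 1609 in control and 3017, 3119, 2651 and 2691 in OGTi, without overlap although control 1 was high (0.75 ± 0.09, DESeq2 q of 5.70e-17).

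Of the J-domain co-chaperones of BiP in this role and their partner, DNAJC3 and SDF2L1 were called lower and DNAJB11 was not called. DNAJC3, which encodes p58IPK, had 1575, 1605, 2146 and 1908 normalized counts in control and 1288, 1220, 1306 and 1477 in OGTi. Each pair fell and no values overlapped (-0.44 ± 0.09, DESeq2 q of 1.13e-05). SDF2L1, which works with the co-chaperone DNAJB11 in the BiP cycle, went from 367, 313, 307 and 299 to 250, 262, 266 and 215 (-0.37 ± 0.15, DESeq2 q of 0.0296). All OGTi libraries were below all controls, but the call was lost without any one replicate, with q between 0.0501 and 0.179. DNAJB11 itself had 1316 ± 54 in control and 1177 ± 60 in OGTi (-0.16 ± 0.09, DESeq2 q of 0.115), and its groups did not overlap either. The values of DNAJC3, SDF2L1 and PDIA6 in each library are given because these genes went against the rest of the role, a choice made after the values were seen.

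Among the lectin chaperones and disulfide isomerases the direction differed from gene to gene. CANX, which encodes the membrane lectin calnexin, went from 13760, 14380, 17510 and 17150 to 19380, 19990, 21680 and 24240 (0.44 ± 0.07, DESeq2 q of 9.84e-11). Controls 3 and 4 were the high controls, and OGTi 3 and 4 were the high OGTi libraries. PDIA4, which encodes ERp72, went from 7119, 6413, 6288 and 6072 to 9540, 9395, 8372 and 8031 (0.45 ± 0.07, DESeq2 q of 1.15e-10), with every OGTi library higher. PDIA3, the ERp57 partner of calnexin, went from 11400 ± 259 to 13850 ± 694 (0.28 ± 0.06, DESeq2 q of 3.57e-05). PDIA6, which encodes the isomerase P5, had 4925, 5069, 5191 and 4898 in control and 3970, 4462, 4309 and 4425 in OGTi. It fell in every pair without overlap (-0.23 ± 0.07, DESeq2 q of 0.0032). PDIA5 had only 186 ± 43 and 197 ± 28 (0.10 ± 0.18, DESeq2 q of 0.698).

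ERO1B, an oxidase that passes oxidizing power to the isomerases, went from 123 ± 17 to 199 ± 31 normalized counts (0.69 ± 0.20, DESeq2 q of 0.00148). Its groups did not overlap, and without replicate 4 the log2 fold change was 0.57 with a q of 0.0594. CRELD2, a secreted ER stress protein, had 751 ± 43 in control and 876 ± 150 in OGTi (0.21 ± 0.11, DESeq2 q of 0.118), where OGTi 2 (1098) stood above the other OGTi libraries. HSP90B1 and PDIA3 have known processed pseudogenes of near-identical sequence, between which RSEM divides reads, so the levels of these genes carry that uncertainty.

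Of the 12 ERAD genes 7 were called higher, 0 lower and 5 were not called, with a median log2 fold change of 0.27 and 0.25 to 0.33 in the 4 pairs. DESeq2 gave 0 of these 12 a negative change at an unadjusted p under 0.05, and edgeR called 0 lower. Only SEL1L had a negative estimate. The summed normalized counts of the 12 ranged from 21210 to 23180 in control and from 25860 to 29910 in OGTi, without overlap. The summed share of the 12 was 0.0833% ± 0.0030 of normalized counts in control and 0.112% ± 0.0066 in OGTi (SD, n = 4), with control values of 0.0804% to 0.0875% and OGTi values of 0.102% to 0.117%.

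DNAJB9, which encodes ERdj4, a co-chaperone that hands misfolded proteins to BiP and restrains IRE1, had the largest change of all 35 genes. Its normalized counts were 207, 232, 208 and 264 in control and 812, 622, 762 and 849 in OGTi. The OGTi values were all far above the controls, at 3.335-fold with a 95% interval of 2.786 to 3.993 (1.74 ± 0.13 on the log2 scale, DESeq2 q of 1.82e-37). Its level nevertheless remained low per kilobase, at 94.5 in control and 316 in OGTi. DNAJC10, the disulfide reductase ERdj5 of the same J-domain family, had 1731 ± 106 and 1870 ± 134 (0.11 ± 0.08, DESeq2 q of 0.247), with a small positive ratio in all 4 pairs.

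Of the ubiquitin ligase complex of the ER membrane, 3 of 4 genes were called higher. SYVN1, which encodes the ligase HRD1, went from 3806, 4265, 3793 and 4268 to 5835, 5795, 6701 and 6273 (0.61 ± 0.08, DESeq2 q of 8.47e-14). HERPUD1, a short-lived organizer of that complex, went from 1429, 1266, 1363 and 1354 to 2010, 2131, 2331 and 2080 (0.66 ± 0.09, DESeq2 q of 1.98e-13). In both genes the groups lay well apart. OS9, a lectin that brings glycoproteins to the complex, went from 7886 ± 480 to 9495 ± 1154 (0.26 ± 0.07, DESeq2 q of 0.000421), with overlapping groups and a rise in each pair. SEL1L, the adaptor that binds HRD1, had 2613 ± 447 and 2442 ± 332 (-0.09 ± 0.08, DESeq2 q of 0.355). The difference between the ligase and its adaptor was not tested.

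The mannose-trimming EDEM proteins mark glycoproteins for degradation. EDEM2 had 884, 858, 676 and 729 normalized counts in control and 1024, 1163, 1153 and 1162 in OGTi (0.52 ± 0.11, DESeq2 q of 1.25e-05). OGTi 1 was the lowest of its group but still above all controls. EDEM1 went from 1106 ± 189 to 1313 ± 282 (0.24 ± 0.09, DESeq2 q of 0.0249) with broad overlap, since both groups ranged widely between pairs. Without the replicate block its q was 0.209, and without replicate 1, 3 or 4 it was 0.0837, 0.134 and 0.193. EDEM3 had 473 ± 57 and 544 ± 50 (0.21 ± 0.13, DESeq2 q of 0.174).

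Of the 3 derlins, which help to draw proteins out through the membrane, 1 was called. DERL2 went from 702 ± 28 to 851 ± 123 (0.27 ± 0.12, DESeq2 q of 0.0469), while pair 1 went the other way at -0.09. Its q was 0.2, 0.155 and 0.332 without replicates 2, 3 and 4. DERL1 had 1584 ± 84 and 1680 ± 188 (0.08 ± 0.08, DESeq2 q of 0.463). DERL3, the least abundant of the 35 with 398 counts over all libraries, had 41.9 ± 15.6 and 55.7 ± 19.4 (0.41 ± 0.34, DESeq2 q of 0.34), and its 95% interval of 0.837-fold to 2.1-fold shows how little this depth resolved.

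**Figure D4:**
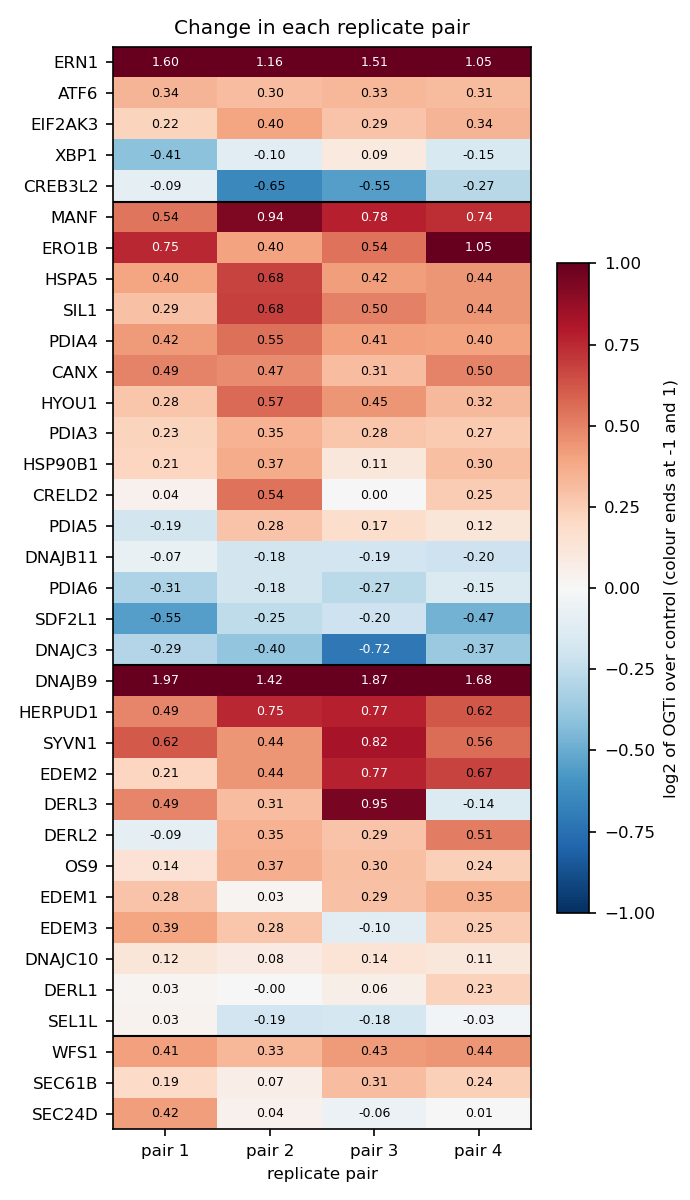
Log2 ratio of OGTi over control in each of the 4 replicate pairs for the 35 genes, ordered by role and by fitted change, with colours ending at -1 and 1. ERN1 and DNAJB9 exceed 1 in every pair, while rows such as SEC24D (0.42 in pair 1 against -0.06 to 0.04 in the others) rest on a single pair.

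Of the remaining 3 genes, WFS1, which encodes an ER membrane glycoprotein mutated in Wolfram syndrome, rose evenly. It went from 3078, 3273, 2943 and 3095 to 4090, 4116, 3963 and 4197 (0.40 ± 0.07, DESeq2 q of 5.97e-08), with no overlap and ratios of 0.33 to 0.44 in the pairs. SEC61B, a subunit of the channel through which new proteins enter the ER, went from 1280, 1344, 1122 and 1225 to 1459, 1411, 1386 and 1445. Its groups did not overlap but the change was small (0.20 ± 0.09, DESeq2 q of 0.0483), and the call was lost without any one replicate, with q from 0.0706 to 0.239. SEC24D, a cargo subunit of the COPII coat, had 2343, 2397, 2921 and 2886 in control and 3135, 2469, 2802 and 2901 in OGTi (0.10 ± 0.09, DESeq2 q of 0.37). Only pair 1 differed by more than 0.06 on the log2 scale, and without replicate 1 the log2 fold change was -0.002.

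Set side by side, the roles had similar medians and a wide spread within each. The median log2 fold change was 0.31 for the sensors and transducers (range -0.39 to 1.33), 0.28 for the ATF6-type chaperones (-0.44 to 0.75) and 0.27 for the XBP1-type ERAD genes (-0.09 to 1.74). All 3 medians were positive in every pair. The share called higher was 3 of 5, 9 of 15 and 7 of 12. The difference between roles was not tested. The promoter elements divided the genes no more sharply. Of the 10 genes with ERSE or ERSE-II, 6 were called higher and 2 lower with a median of 0.33. The 21 genes with a window and neither of these elements include DNAJC10, which held UPRE. Of these 21, 14 were called higher and 2 lower with a median of 0.27. Elements with a mismatch or outside the windows were not counted. DNAJB9, ERN1 and MANF, which rose most among the genes with a window, had no match in these letters.

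Within gene families the ratio between relatives was compared between groups in 18 pairs of genes, a comparison not planned beforehand. The test was an exact 2-sided permutation test over the 8 libraries, whose smallest possible p was 0.0286. The log2 ratio of PDIA4 to PDIA6 was 0.36 ± 0.11 in control and 1.04 ± 0.17 in OGTi, and that of PDIA3 to PDIA6 was 1.18 ± 0.06 and 1.69 ± 0.07 (SD, n = 4 and exact p of 0.0286 for both). The log2 ratio of DNAJB9 to DNAJC3 was -2.99 ± 0.26 in control and -0.80 ± 0.13 in OGTi, the widest difference of the 18 (exact p of 0.0286). Each of these 3 pairs set a gene called higher against a gene called lower in the same data, so their separation is no further support. In these 3 pairs of genes the groups did not overlap, which held for 7 of the 18. The smallest adjusted p over the 18 was 0.0735, shared by those 7 with the smallest possible p, so the design limits what this test can show. This test does not use the replicate pairing. Within the replicate pairs the difference had 1 sign in all 4 for 12 of the 18, and ran from 0.55 to 0.74 for PDIA4 over PDIA6, from 0.41 to 0.55 for PDIA3 over PDIA6 and from 1.82 to 2.59 for DNAJB9 over DNAJC3. An exact 2-sided sign-flip test over the 4 replicate pairs, chosen after the data were seen, cannot go below 0.125, the value it gave for each of these 12. For EDEM1 and EDEM3 the ratio differed by 0.03 (exact p of 0.886).

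Beyond the 35, the pathway was followed in 137 other genes in 6 lists, of which 134 were tested, 46 called higher and 25 lower. Their median log2 fold change was 0.09. Over all 14028 genes with a q, 22.7% were called higher and 24.0% lower, for comparison with these counts and with those of each list. The list of the PERK arm, with ATF4, CHOP and genes they are known to drive, had the highest median of the 6 at 0.82, with 9 of 14 called higher and 0 lower (also 0 at an unadjusted p under 0.05, and 0 lower with edgeR). The median of this list was positive in each pair but ranged from 0.46 in pair 1 to 1.20 in pair 3. PPP1R15A, the phosphatase subunit GADD34 that reverses PERK signalling, went from 7236 ± 624 to 14280 ± 1636 normalized counts (0.98 ± 0.08, DESeq2 q of 6.97e-32). ASNS, the asparagine synthetase, rose by 1.03 ± 0.11 (DESeq2 q of 1.87e-20) and SESN2, a stress-induced sestrin, by 1.01 ± 0.10 (DESeq2 q of 1.65e-20). ATF4 and DDIT3, which encodes CHOP, are given by choice after their values were seen, at 0.72 ± 0.08 (DESeq2 q of 2.10e-16) and 1.33 ± 0.26 (DESeq2 q of 1.55e-06). These genes also answer to amino acid shortage and other stresses that reach ATF4 without PERK.

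The list of other ERAD genes had 14 of 31 called higher and 2 lower, with a median of 0.15, and 9 called higher without replicate 3. Its largest statistics belonged to MAN1B1, an ER mannosidase (0.95 ± 0.09, DESeq2 q of 6.67e-25), NGLY1, which removes glycans from extracted proteins (0.82 ± 0.11, DESeq2 q of 1.09e-13), and FAF2, which recruits the extraction motor (0.45 ± 0.08, DESeq2 q of 2.59e-08). The 2 called lower were ERLEC1 (-0.56 ± 0.11, DESeq2 q of 3.53e-06) and UBXN8 (-1.29 ± 0.29, DESeq2 q of 5.29e-05). Translocation and signal peptide cleavage had 7 of 18 called higher and 2 lower (1 lower without replicate 2 or 3, and also without the replicate block), with SEC61A1, the channel itself, at 0.44 ± 0.06 (DESeq2 q of 4.04e-11), SSR4 at 0.48 ± 0.10 (DESeq2 q of 7.61e-06) and TRAM2, linked to collagen synthesis, at -0.54 ± 0.06 (DESeq2 q of 1.85e-16).

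The list of other ER folding genes was divided evenly, with 10 of 37 called higher, 10 lower and a median of 0.01, and without replicate 4 the number called higher was 6. FKBP10, a prolyl isomerase that helps collagen to fold, fell from 4922 ± 402 to 2576 ± 305 normalized counts (-0.94 ± 0.07, DESeq2 q of 4.81e-35). DNAJC1, a J-domain protein of the ER membrane, rose by 1.14 ± 0.09 (DESeq2 q of 1.42e-34) and CLGN, a relative of calnexin, by 1.12 ± 0.12 (DESeq2 q of 5.32e-19). CALR, which encodes calreticulin, the soluble relative of calnexin, was looked up because its promoter window held ERSE, and gave -0.15 ± 0.09 (DESeq2 q of 0.149), or -0.26 with a q of 0.0115 without replicate 2. Export from the ER and KDEL retrieval had 8 of 22 genes called lower against 4 higher (median -0.14), or 5 lower without replicate 3. SEC23A, a COPII coat subunit, changed by -0.85 ± 0.07 (DESeq2 q of 1.79e-33), LMAN1, a cargo receptor, by -0.70 ± 0.08 (DESeq2 q of 5.17e-19), and MIA3, the procollagen exporter TANGO1, by 0.70 ± 0.08 (DESeq2 q of 8.47e-18).

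Among 12 other transducers 2 were called higher (1 without replicate 2) and 3 lower, with a median of -0.03. The largest statistic was that of NFYB, a subunit of the NF-Y factor that binds the CCAAT end of ERSE. NFYB had 692, 807, 737 and 624 normalized counts in control and 294, 347, 361 and 341 in OGTi, a fall in every pair (-1.09 ± 0.12, DESeq2 q of 4.67e-18). The other subunits, looked up after this value was seen, were not called (NFYA at 0.22 ± 0.11, DESeq2 q of 0.0899 and edgeR q of 0.0479, and NFYC at 0.12 ± 0.09, DESeq2 q of 0.253). BAG6, a chaperone of membrane proteins that also serves ERAD, changed by -0.49 ± 0.07 (DESeq2 q of 1.91e-12), and CREB3L1, a close relative of CREB3L2 and like it known for collagen secretion, by -0.40 ± 0.08 (DESeq2 q of 7.14e-06). CREB3L1 and CREB3L2 had negative changes of similar size, and both fell in all 4 pairs. The other 2 CREB3 genes of the list went the other way and were the 2 called higher. CREB3 changed by 0.49 ± 0.10 (DESeq2 q of 1.74e-05) and CREB3L4 by 0.77 ± 0.24 (DESeq2 q of 0.00404). Both rose in all 4 pairs, with groups that overlapped.

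**Figure D5:**
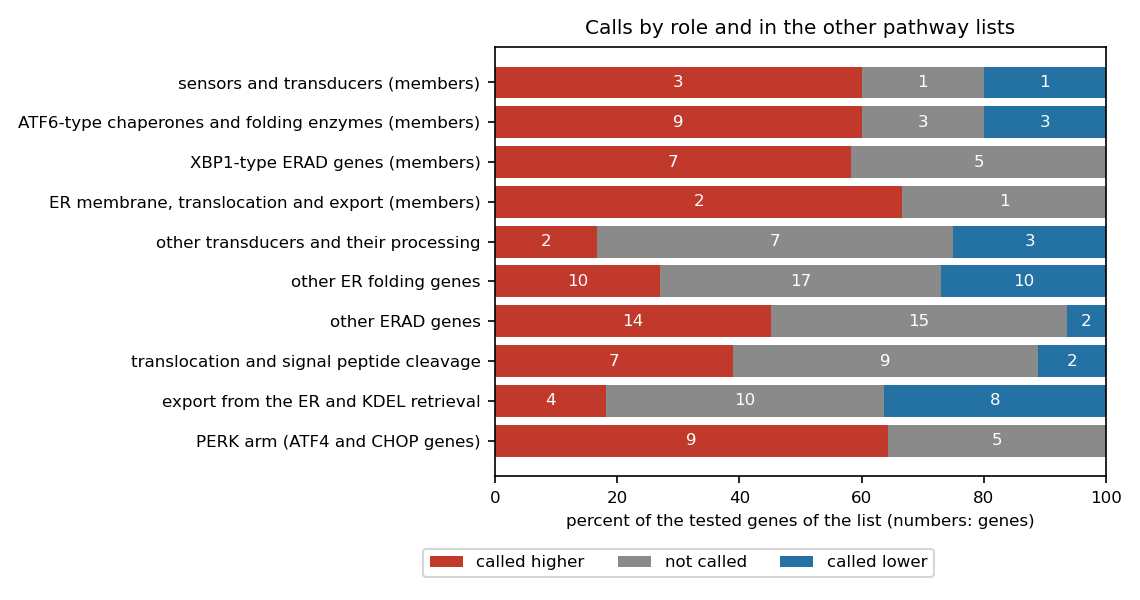
Percent of the tested genes called higher, not called and called lower in each role of the 35 genes (upper 4 bars) and in the 6 lists of other pathway genes, with the number of genes printed in each segment. The ERAD role, the role of membrane, translocation and export, and the PERK arm have no segment called lower, while the export list has 8 genes lower and 4 higher. Over all genes with a q, 22.7% were called higher and 24.0% lower.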

How the data were processed

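LX-2 cells treated with vehicle or OSMI-1 had been profiled by strand-specific, paired-end sequencing of polyadenylated RNA, 4 libraries per group described as independent experiments. The authors aligned reads to hg38 with GENCODE annotation (Bowtie2 2.3.5.1) and deposited RSEM 1.3.1 expected counts (estimated counts, in which reads with several alignments are shared between genes) per gene, not scaled for depth, 1 file per library. Their deposited comparison table, made with DESeq2 1.36.0, holds fold changes and p-values and was not used.

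Expected counts were rounded and genes with fewer than 10 counts in total left out. The 14895 remaining genes were fitted with the Wald test of DESeq2 1.42.0 in R 4.3.3 with replicate and treatment as terms, median-of-ratios size factors, independent filtering and unshrunken fold changes. A gene was called at a Benjamini-Hochberg q of 0.05 or lower over all genes with a q. The replicate block follows the study's methods. Deviations from the group means correlated between libraries of the same number at 0.295, 0.243, 0.111 and 0.189 for replicates 1 to 4 (13082 genes), and control 3 correlated more with OGTi 4 (0.191) than with OGTi 3. Dividing a count by the size factor of its library gave the normalized count. Levels per kilobase use the canonical transcript in GENCODE release 44 and are approximate where another transcript is expressed. Intervals at 95% are the log2 fold change ± 1.96 standard errors. The fitting code was run on simulated counts with a fixed dispersion and no replicate effect. That run checks the code and not the calls made here.

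The 35 genes, their roles and the other lists were chosen with earlier results of these data known. All 35 are named. Values per library are given for the 5 sensors and transducers, HSPA5, HSP90B1 and the 4 members of each other role with the largest absolute Wald statistic, and for other lists the 3 genes with the largest are named. Alternatives were edgeR 4.0.16, TMM size factors, other filters, no block, and each replicate left out.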

Additional observations from a re-analysis of the deposited data

Results flagged for a closer look

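Values were examined in each group of 4 libraries for each gene and for the summed share of each of the 4 roles. The highest and the lowest value were compared with their nearest neighbour. A value was singled out where that gap, as part of the range of the group, exceeded the 95% critical value of Dixon's test. This held for 4 of the 78 groups examined, and chance alone gives about 1 in 20 groups, or 3.9 of 78. SIL1 had 751.1 normalized counts in control 1 against 530.4 to 543.9 in the other controls. MANF had 2080 in control 1 against 1549 to 1631, so both high values belonged to the same library. PDIA3 had 14890 in OGTi 2 against 13430 to 13650 in the other OGTi libraries, and EDEM2 had 1024 in OGTi 1 against 1153 to 1163. All 4 genes were called higher without any one replicate.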

How the results depend on the processing

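The calls of the 35 genes depended little on the tool and more on the number of libraries. Over 9 alternatives, 297 of 315 values kept their direction and side of the threshold, and 28 of the 35 genes did so in all 9. The counts of 21 higher and 4 lower did not change with edgeR, TMM size factors, a stricter filter on low counts or no filter. Without the replicate block 24 genes were called in place of 25, EDEM1 being lost (log2 fold change of 0.25, q of 0.209), and the pairing changed no other call among the 35. Leaving out a replicate left 20 to 22 genes called, which goes with fewer samples. EIF2AK3, SDF2L1, ERO1B, EDEM1, DERL2 and SEC61B lost their calls in 1 or more of these fits. SEC24D, not called, ranged from -0.002 without replicate 1 to 0.153 without replicate 3. The median of the ERAD genes ranged from 0.235 to 0.341. The other pathway genes called numbered 71, against 78 with edgeR, 65 without the block and 55 to 69 without a replicate. With 4 libraries a group, changes near a log2 fold change of 0.2 were resolved only in the more abundant genes, and DERL3, PDIA5 and ERO1B had the largest standard errors of the 35. Splicing of XBP1, protein levels and times other than 24 h were not measured.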
